A study of Mus musculus with 9 samples.

Results

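The genes of mitochondrial ribosomal proteins were examined in B16 cells, a mouse melanoma cell line. All gene symbols that begin with Mrpl or Mrps followed by a digit were taken, and pseudogene names were left out. This gave 78 members among 22972 gene names, with 49 named for the large subunit (Mrpl) and 29 for the small subunit (Mrps). A total of 9 RNA libraries were analyzed, 3 in each of 3 groups. The cells of all groups were wild-type B16 cells grown in serum-supplemented DMEM on a flexible PDMS film and collected on day 3. CTL was the control without straining, and MS was strained cyclically for 72 h. The last group received blebbistatin, an inhibitor of myosin, for 72 h at 100 ng/mL. Its sample labels name blebbistatin alone, whereas the study names straining together with blebbistatin, so the group is called MS + Blebb. here. The libraries of a group are numbered by parallel experiment, and nothing states whether they came from separate cultures, so p-values measure only the spread between these libraries. The comparisons asked whether straining, and myosin inhibition during straining, changed gene expression.

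The mitochondrial ribosome translates the mRNAs of the mitochondrial genome, which encode membrane subunits of the respiratory chain and of ATP synthase. Its rRNAs come from the mitochondrial genome, but all of its proteins are encoded in the nucleus, made in the cytosol and imported. Many of these proteins descend from bacterial ribosomal proteins, while others exist only in mitochondria. Melanoma cells, like other growing cells, depend on this ribosome for respiration. The members were classed by the known places of their proteins in the mammalian mitochondrial ribosome. Of the 78 members, 46 were classed as having a bacterial counterpart and 31 as specific to mitochondria. The remaining member, Mrps36, is now known as a component of the 2-oxoglutarate dehydrogenase complex. Mrps18a and Mrps30 sit in the large subunit despite their names. Mrps18a and Mrps18b are classed as specific to mitochondria by their places, although they are paralogs of the bacterial S18 protein. A further 5 ribosomal places are held by proteins with other symbols, and these are described separately.

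Values are FPKM, which divides the fragments of a gene by its length and by the total mapped in that library. Levels of different genes can be compared only roughly, because GC content and exons shared with other genes are not corrected for. The read depth is unknown, because the low values showed no step that would mark a single read. Of the 9 libraries, CTL replicate 1 and MS + Blebb. replicate 2 lay apart on the first principal component of all genes tested, at -42.1 and -43.9, while the others lay between -10.0 and 35.8. All 7 melanocyte markers were expressed, from 21.4 FPKM on average for Mitf to 3827 FPKM for Pmel. Fibroblast markers reached at most 0.180 FPKM and keratinocyte markers at most 0.022 FPKM in any library. Of 6 macrophage markers only Cd68, a lysosomal protein not limited to macrophages, had a mean above 1 FPKM, at 2.14 FPKM. In bulk RNA, fewer cells of a kind and less RNA per cell cannot be told apart.

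All 78 members were expressed. Their mean over the 9 libraries ran from 1.71 FPKM for Mrpl1 to 228 FPKM for Mrpl12, with a median of 37.9 FPKM. The median of the 10109 genes tested, which had a mean of at least 1 FPKM, was 10.4 FPKM, and only 6 members lay below it. A mean between 10 and 100 FPKM was found for 67 members, above 100 FPKM for 6 and below 10 FPKM for 5. Both subunits had nearly the same median, at 38.0 FPKM for the large and 37.8 FPKM for the small. Their ranges were unlike, since the large subunit genes spanned 133-fold and the small subunit genes 10.4-fold, from 11.4 FPKM for Mrps5 to 119 FPKM for Mrps21. Members with a bacterial counterpart had a median of 38.3 FPKM, and those specific to mitochondria had a median of 33.7 FPKM. The 5 most abundant genes held 30.5% of the sum of the large subunit genes and 37.1% of that of the small subunit genes. Across the 78 members, the log2 mean was higher with a higher GC content of the longest transcript (Pearson's r = 0.55) and lower with a longer one (r = -0.54), as a description of genes that share the same libraries. The cytosolic ribosomal proteins were far more abundant, with a median of 677 FPKM over 76 genes. Nuclear-encoded subunits of the respiratory chain were also higher, with a median of 169 FPKM over 80 genes.

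**Figure D1:**
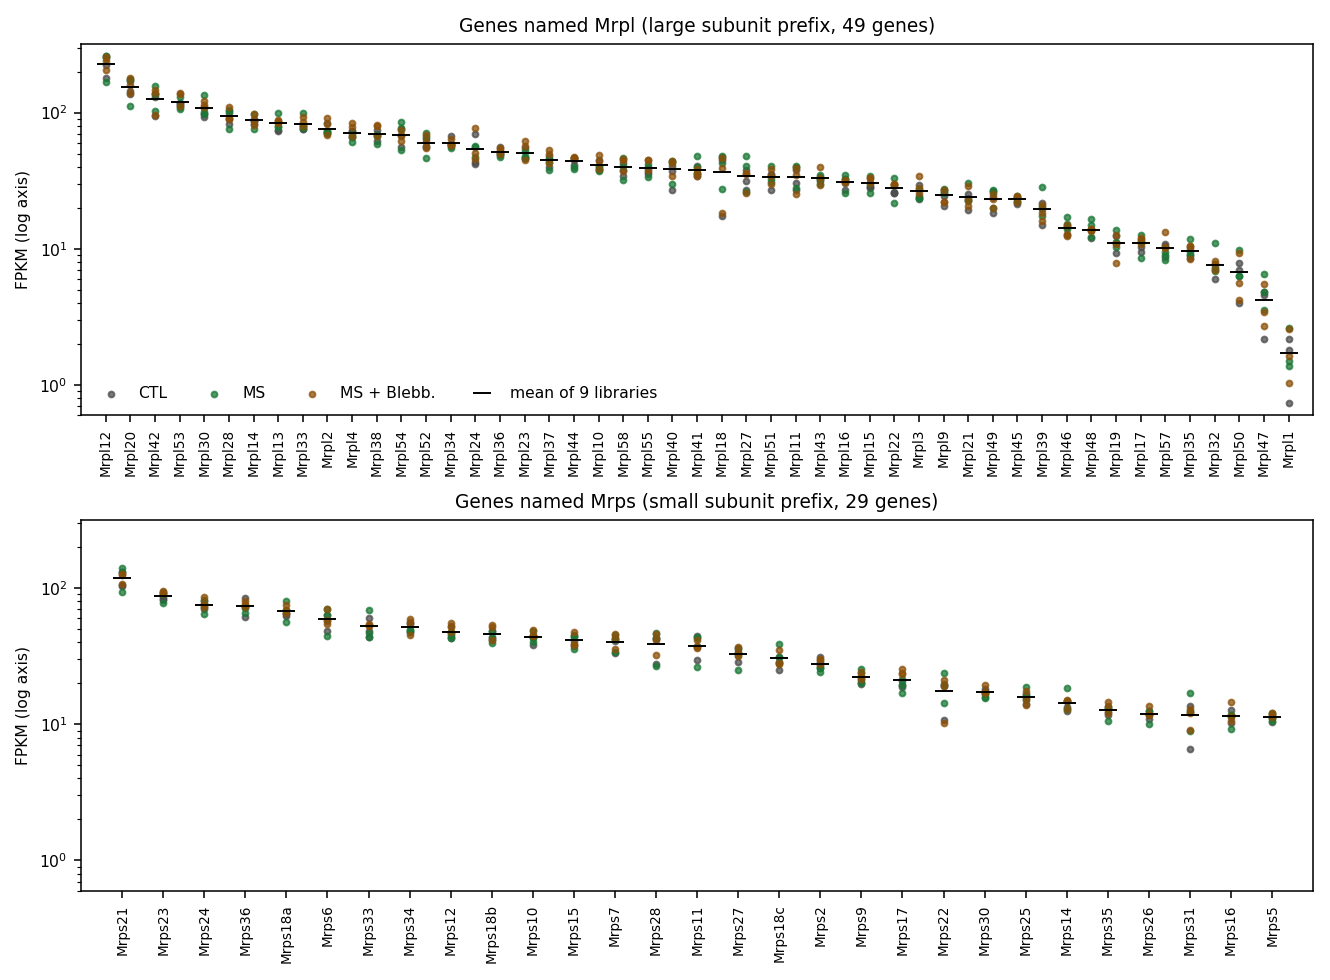
FPKM of every mitochondrial ribosomal protein gene in each of the 9 libraries (points, colored by group; log axis), ordered by the mean of 9 libraries (dash) within the large (upper) and small (lower) subunit prefix. The large subunit genes run from Mrpl12 at 228 FPKM to Mrpl1 at 1.71 FPKM, and the small subunit genes from Mrps21 at 119 FPKM to Mrps5 at 11.4 FPKM.

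Mrpl12 forms the flexible stalk that recruits translation factors, and it also binds the mitochondrial RNA polymerase. It was measured at 180, 261 and 225 FPKM in CTL, 254, 263 and 168 FPKM in MS, and 256, 206 and 239 FPKM in MS + Blebb. The groups overlapped, and the library with the lowest value was MS replicate 3. Next in level among the large subunit genes were Mrpl20 with a mean of 155 FPKM, whose bacterial counterpart binds rRNA early in assembly, and Mrpl42 with 126 FPKM, a protein specific to mitochondria. At the other end, Mrpl1, the protein of the mobile stalk where tRNA leaves the ribosome, was at 0.731, 1.81 and 2.15 FPKM in CTL, 2.61, 1.48 and 1.38 FPKM in MS, and 1.63, 1.03 and 2.59 FPKM in MS + Blebb. Its values varied 3.57-fold between the lowest and the highest library, more than those of any other member. Mrpl47, which lies at the exit of the peptide tunnel, had a mean of 4.22 FPKM, and Mrpl50 had a mean of 6.70 FPKM. Mrpl32 and Mrpl35 were the other members below 10 FPKM, with means of 7.64 and 9.69 FPKM. The order of neighbors in the middle of the list should not be read as a difference, because means of 41.6, 41.2 and 40.4 FPKM for Mrps15, Mrpl10 and Mrps7 lay within the spread of each gene over the libraries.

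Among the small subunit genes, Mrps21 was measured at 104, 132 and 106 FPKM in CTL, 131, 140 and 94.3 FPKM in MS, and 127, 107 and 125 FPKM in MS + Blebb. The groups overlapped here as well. Mrps23 followed with a mean of 88.4 FPKM and Mrps24, the counterpart of the bacterial protein at the mRNA entrance, with 75.8 FPKM. The lowest means were found for Mrps31 at 11.7 FPKM, Mrps16 at 11.5 FPKM and Mrps5 at 11.4 FPKM. The bacterial counterpart of Mrps5 affects the accuracy of decoding. The 3 paralogs of the bacterial S18 protein occupy different places in the ribosome and were measured at different levels. Mrps18a had a mean of 67.6 FPKM, and its lowest library, at 56.6 FPKM, lay above the highest of Mrps18b, at 53.9 FPKM. Mrps18b had a mean of 45.8 FPKM, and its lowest library, at 39.3 FPKM, lay above the highest of Mrps18c, at 39.0 FPKM. Mrps18c, which takes the place of the bacterial protein, had the lowest mean of the 3, at 30.5 FPKM. The GC content of their longest transcripts fell in the same order, at 55.2%, 52.6% and 44.5%. The part of GC content in these levels was not tested. Mrps18b and Mrps18c share exon positions with other annotated genes, and the strand setting of the counting is not stated.

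The summed FPKM of the large subunit genes was 2187, 2503 and 2346 in CTL, 2718, 2499 and 2074 in MS, and 2646, 2437 and 2435 in MS + Blebb. The small subunit genes summed to 1042, 1205 and 1092 in CTL, 1231, 1195 and 975 in MS, and 1230, 1154 and 1163 in MS + Blebb. MS replicate 1 was the highest and MS replicate 3 the lowest library in both subunits, so the MS group spanned both other groups. The group values were 2345 ± 158, 2430 ± 327 and 2506 ± 121 FPKM (SD, n = 3) for the large subunit genes in CTL, MS and MS + Blebb. For the small subunit genes they were 1113 ± 83.4, 1134 ± 139 and 1183 ± 41.5 FPKM (SD, n = 3). The groups overlapped in both sums. The ratio of the large to the small sum lay between 2.08 in CTL replicate 2 and 2.21 in MS replicate 1. This ratio had a coefficient of variation of 1.92% over the 9 libraries, whereas the sums had 8.40% for the large and 7.79% for the small subunit genes. The members held between 0.651% and 0.826% of the summed FPKM of a library.

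**Figure D2:**
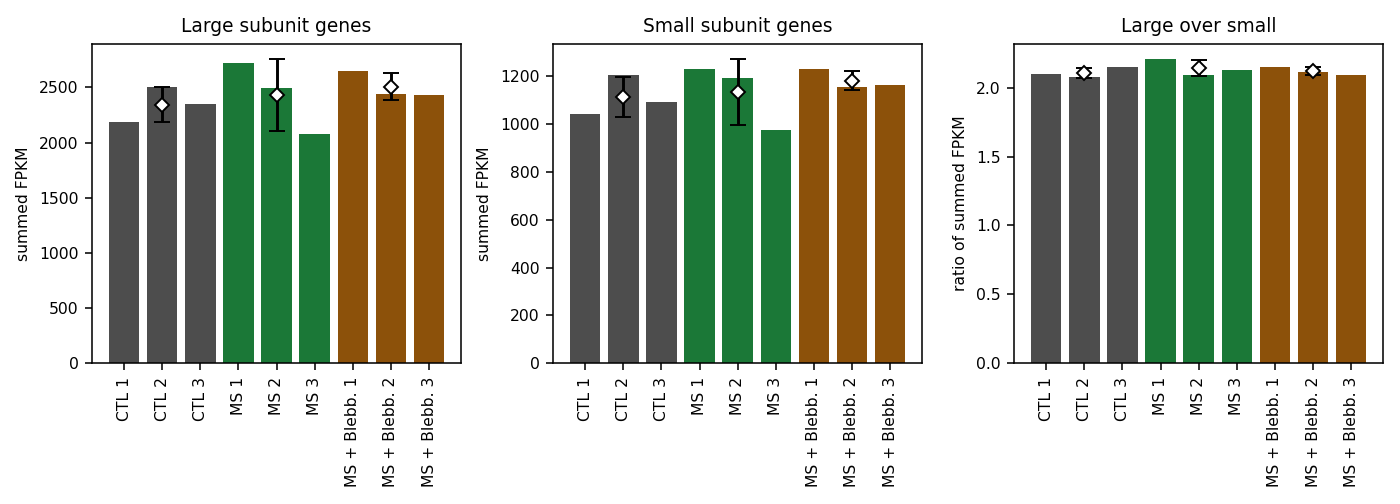
Summed FPKM of the 49 large and 29 small subunit genes and their ratio in each library (bars, colored by group), with the mean and SD of the 3 libraries of each group (diamonds and error bars). Both sums are highest in MS replicate 1 and lowest in MS replicate 3, while the ratio stays between 2.08 and 2.21.

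Libraries of the same group differed in the members, and many members shared the direction of these differences. To show this, the deviation of each member from its own mean of log2(FPKM + 1) over the 9 libraries was taken. In MS replicate 3, 74 of 78 members were below their own mean, with a median deviation of -0.17. It was the lowest of the 9 libraries for 33 members (42.3%), compared with 10.3% of all genes tested. CTL replicate 1 was below the mean for 62 members (median -0.14) and the lowest library for 23 (29.5%, compared with 19.7% of all genes tested). MS replicate 1 was above the mean for 62 members (median 0.16) and the highest library for 37 (47.4%, compared with 28.7% of all genes tested). MS + Blebb. replicate 1 was above the mean for 60 members, with a median of 0.11. It was the lowest library for 0 members, compared with 8.44% of all genes tested. The median deviation of all genes tested was 0.020 in MS replicate 3 and -0.076 in CTL replicate 1. It was 0.060 in MS replicate 1 and -0.021 in MS + Blebb. replicate 1. MS + Blebb. replicate 2 divided the members, with 37 above and 41 below their mean. It was the highest library for 14 members (17.9%, compared with 21.9% of all genes tested) and the lowest for 7 (8.97%, compared with 19.3%). The 3 groups accounted for 12.9% of the variance of the members, and for 13.2% of the variance of all genes tested.

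**Figure D3:**
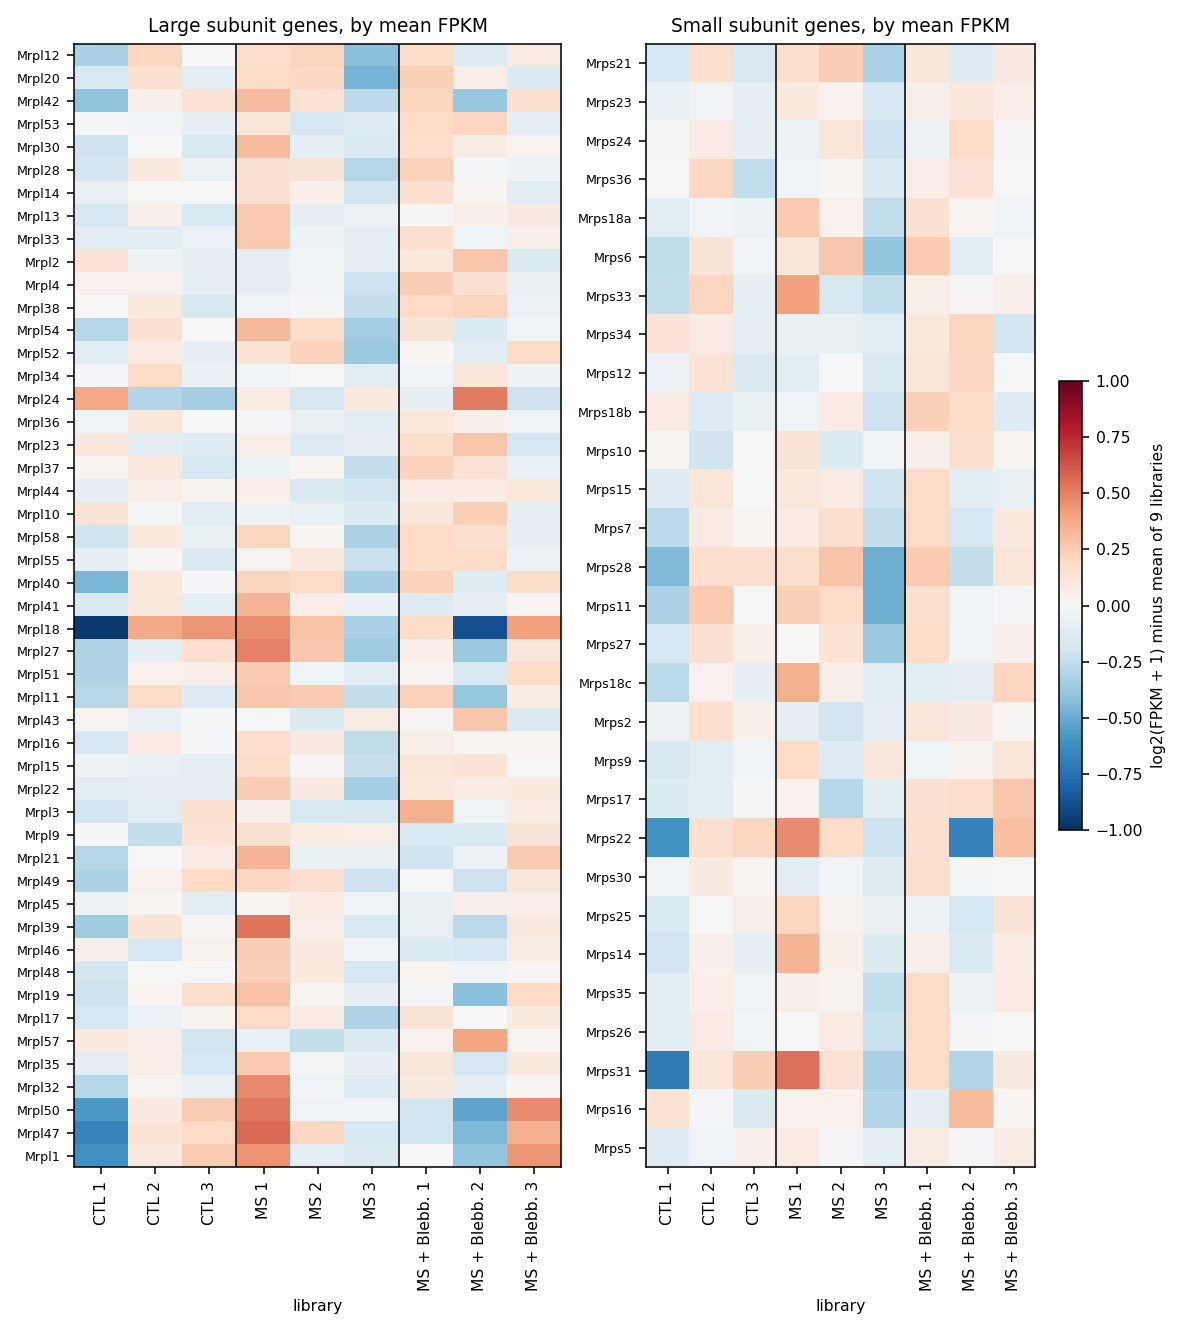
Deviation of log2(FPKM + 1) from the mean of 9 libraries for each large (left) and small (right) subunit gene (rows, ordered by mean FPKM) in each library (columns, grouped as CTL, MS and MS + Blebb.). Most members are above their mean (red) in MS replicate 1 and below it (blue) in MS replicate 3 and CTL replicate 1, and the darkest blue belongs to Mrpl18 in CTL replicate 1 at -0.96.

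The libraries also differed in other gene groups. Atf4, a transcription factor induced by amino acid shortage and by mitochondrial stress, was at 337, 126 and 132 FPKM in CTL, 143, 129 and 280 FPKM in MS, and 174, 319 and 141 FPKM in MS + Blebb. The sum of 8 genes of this stress response was 1136 FPKM in CTL replicate 1, 905 FPKM in MS replicate 3 and 1159 FPKM in MS + Blebb. replicate 2, and between 424 and 627 FPKM in the others. Not every gene followed the sum. Atf3 was highest in MS replicate 1, at 4.85 FPKM, and Psat1 in MS + Blebb. replicate 1, at 131 FPKM. The 13 mRNAs encoded in the mitochondrial genome, which the mitochondrial ribosome translates, summed to 52099, 22896 and 25897 FPKM in CTL, 28594, 32461 and 55335 FPKM in MS, and 31535, 39960 and 26824 FPKM in MS + Blebb. MS replicate 3 and CTL replicate 1 were thus the highest libraries in these mRNAs, while they were the lowest in the sums of the members. Pearson's r between the deviation of a library and GC content lay between -0.44 in MS + Blebb. replicate 3 and 0.26 in MS replicate 2 across the 78 members, and between -0.64 in MS replicate 1 and 0.55 in MS + Blebb. replicate 1 across all genes tested. The log2 fold changes of the genes tested followed GC content as well, with r = -0.64 between MS and CTL, 0.66 between MS + Blebb. and MS, and 0.43 between MS + Blebb. and CTL, while the members had -0.38, 0.22 and -0.15. The part of the stress response and of GC content in the levels of the members was not tested. The nuclear-encoded respiratory chain genes were also lowest in MS replicate 3, with a sum of 15329 FPKM, and highest in MS replicate 1, with 20015 FPKM. The sum of the cytosolic ribosomal proteins had the same lowest and highest library, at 56000 and 68952 FPKM.

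The spread of single members over the libraries was small. The median SD of log2(FPKM + 1) was 0.16 for the members and 0.23 for all genes tested, and 15 members lay above the latter. It was 0.17 for the cytosolic ribosomal proteins and 0.20 for the nuclear-encoded respiratory chain genes tested. A low spread was thus not particular to the members. The mRNAs of the mitochondrial genome had 0.41. All genes tested had a lower median level than the members, so their spread is not matched for level. The highest library exceeded the lowest by a median of 1.42-fold, and by more than 2-fold in 6 members. The steadiest members were Mrpl45, Mrpl36 and Mrps5. Mrpl45, the protein that holds the ribosome at the inner membrane, was at 22.2, 23.5 and 21.4 FPKM in CTL, 23.5, 24.5 and 22.4 FPKM in MS, and 22.0, 24.1 and 24.3 FPKM in MS + Blebb. Its SD of 0.068 was the smallest of all members, and its groups overlapped. Mrps5 was between 10.3 and 12.1 FPKM and Mrpl36 between 47.4 and 55.9 FPKM in all libraries.

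Mrpl18 had the largest SD of log2(FPKM + 1) among the members, at 0.57, a scale on which genes near 0 such as Mrpl1 vary less than in their ratios. Its bacterial counterpart binds the 5S rRNA in the central protuberance of the large subunit. It was measured at 17.3, 45.2 and 47.4 FPKM in CTL, 48.1, 42.4 and 27.4 FPKM in MS, and 39.5, 18.4 and 46.5 FPKM in MS + Blebb. The libraries MS + Blebb. replicate 2, MS replicate 3 and CTL replicate 1 were each the lowest of their group, and the groups overlapped. Mrps22, a small subunit protein specific to mitochondria, showed the same order, at 10.8, 19.0 and 19.8 FPKM in CTL, 23.9, 19.4 and 14.4 FPKM in MS, and 19.1, 10.2 and 21.1 FPKM in MS + Blebb. Mrps31 was also lowest in these libraries of each group, at 6.58, 12.4 and 13.6 FPKM in CTL, 17.1, 12.6 and 8.88 FPKM in MS, and 13.0, 9.08 and 12.1 FPKM in MS + Blebb. In all 3 groups these were the libraries with the highest sum of the stress response genes. They were also the lowest of their groups on the first principal component, at -43.9, -10.0 and -42.1. This component held 70.4% of the variance of all genes tested. Mrpl12 and Mrps21 had the same lowest library in each group, while Mrpl43 was highest in these libraries. The members with either order were not counted. Mrpl24 was chosen after its values were seen because it ran the other way. The bacterial counterpart of Mrpl24 is among the first proteins to bind rRNA in large subunit assembly. It was at 69.6, 43.1 and 42.0 FPKM in CTL, 56.0, 47.3 and 56.8 FPKM in MS, and 50.2, 76.5 and 45.8 FPKM in MS + Blebb., so that each of these libraries was the highest of its group. Mrpl18 shares exon positions with Tcp1 and Mrpl24 with Rrnad1, both on the opposite strand.

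**Figure D4:**
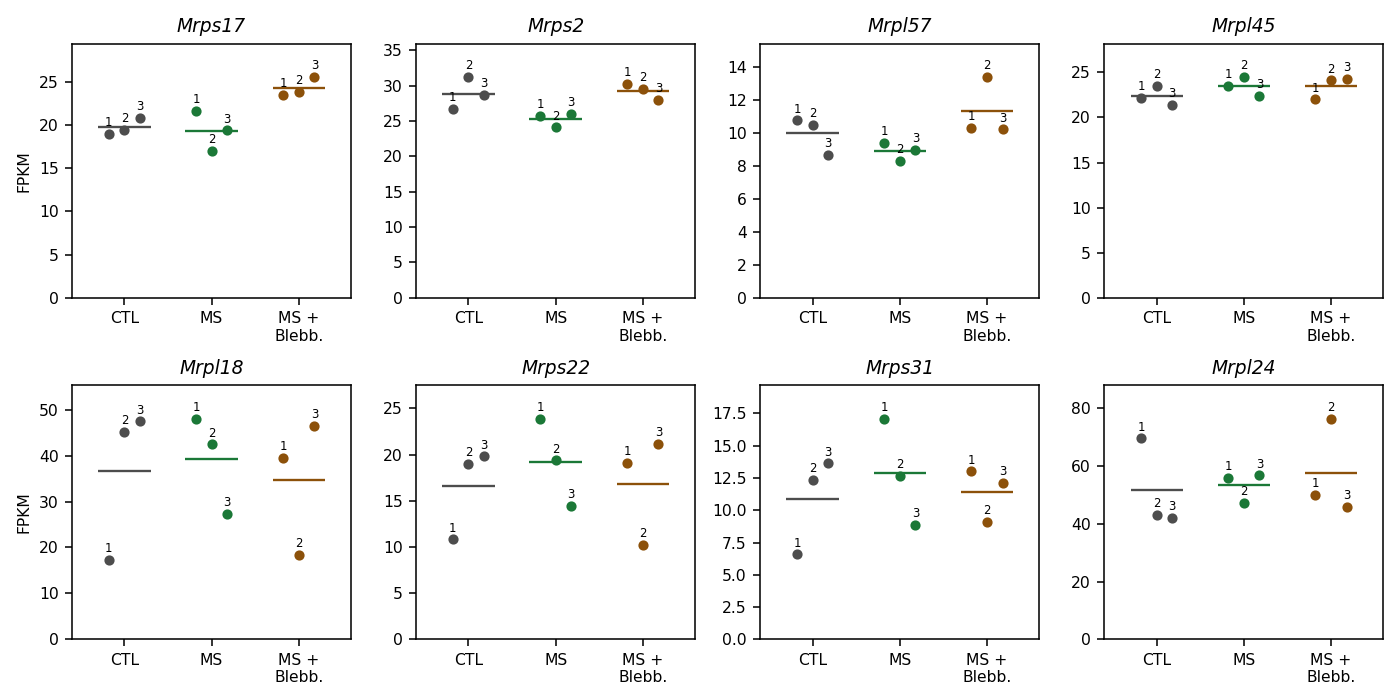
FPKM of 8 members in each library (points, labelled with the replicate number) with the mean of each group (lines). Mrps17 is higher in all MS + Blebb. libraries than in all others, Mrpl18, Mrps22 and Mrps31 are lowest within each group in MS + Blebb. replicate 2, MS replicate 3 and CTL replicate 1, and Mrpl24 is highest in the same libraries.

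The sequence before the transcription start was examined for letters known from promoters of nuclear genes for mitochondria. RefSeq promoters (GRCm38.p6, 250 bases before to 50 after the start) were matched by symbol for 69 of the 78 members. Both strands were searched, and a gene with several starts counted once. The core CGCANGCG of the NRF1 motif was found in 29.0% of the matched members, 21.9% of the genes tested and 9.22% of all promoters. The ETS motif CCGGAAG was found in 37.7%, 23.1% and 9.93% of these, and the YY1 motif AAGATGGCG in 11.6%, 4.24% and 1.64%. The GC box GGGCGG was found in 49.3% of the members, below the 72.7% of the genes tested, and CCAAT in 39.1% and 43.7%. The letters TGATGNAAN, shared by sites of the Atf4 response, were found in 0 of the 69 members and in 2.52% of the genes tested. No test was made of these shares, and a match is not evidence of binding. The 250 bases before the start of the steadiest member, Mrpl45, and of the small subunit gene with the largest SD, Mrps22, are printed here because neither window holds an annotated exon. They read 5′ to 3′ on the strand of the gene, with matches to the NRF1, ETS and YY1 letters in capitals and those to the other letters left in lower case.
Mrpl45 (chr11:97315466-97315715, plus strand): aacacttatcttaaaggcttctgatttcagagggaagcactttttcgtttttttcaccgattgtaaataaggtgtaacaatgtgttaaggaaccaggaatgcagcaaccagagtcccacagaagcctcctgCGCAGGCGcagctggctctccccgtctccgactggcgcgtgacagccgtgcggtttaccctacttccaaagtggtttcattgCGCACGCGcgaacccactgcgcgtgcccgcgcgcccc
Mrps22 (chr9:98601680-98601929, minus strand): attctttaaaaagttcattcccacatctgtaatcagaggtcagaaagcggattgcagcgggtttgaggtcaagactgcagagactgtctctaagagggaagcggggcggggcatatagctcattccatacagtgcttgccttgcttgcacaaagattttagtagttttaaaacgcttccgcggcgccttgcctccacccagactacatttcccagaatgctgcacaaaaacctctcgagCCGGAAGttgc
The capitals in Mrpl45 are matches to the NRF1 core that begin 119 and 37 bases before the start, and those in Mrps22 are a match to the ETS motif that begins 11 bases before it. The upstream window of 30 of the 69 members held an exon of another gene, so these windows reach into a neighboring gene. Mrpl46 and Mrps11 are such neighbors and overlap on chromosome 7 on opposite strands. They were the only members that lay within 100 kb of each other. The 78 members were spread over 17 chromosomes, with 11 on chromosome 11.

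In MS against CTL, the levels of the members were close to each other. The median log2 fold change was 0.050, within a range from -0.18 for Mrps2 to 0.32 for Mrpl47, and 52 of 78 members were above 0. Over all genes tested the median was -0.0018 and 49.5% were above 0. The median was 0.081 for the large and 0.029 for the small subunit genes. With an adjusted p under 0.05 (limma with Benjamini-Hochberg adjustment), 0 members were called, as were 0.00% of all genes tested. At an unadjusted p under 0.05 there were also 0 members, compared with 0.158% of all genes, and the smallest p was 0.131 for Mrps2 (limma). Without CTL replicate 1, an alternative added after the data were seen, 33 members were above 0. Further alternatives added in the same way gave other counts. It was 62 members when each group lost its lowest library on the first principal component, and 47 with the GC trend removed. With the trend with GC content removed, the large subunit median was 0.039 and the small subunit median was -0.016. Without MS replicate 1 the large subunit median was -0.021, and without CTL replicate 1 the small subunit median was -0.048.

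Mrps2, a protein on the solvent side of the small subunit, was the only member whose groups did not overlap in MS against CTL, compared with 3.17% of all genes tested in either direction and 2.64% lower in MS. It was at 26.7, 31.2 and 28.7 FPKM in CTL, 25.8, 24.1 and 26.0 FPKM in MS, and 30.3, 29.5 and 28.0 FPKM in MS + Blebb. All MS libraries lay below all others, although MS replicate 3 and CTL replicate 1 differed by less than 1 FPKM. The difference was -0.18 on the log2 scale (standard error 0.11, adjusted p = 1.00, limma) and did not pass the test. Mrpl57 was the next lowest of the members named by rule, at -0.15 with a standard error of 0.15. Among members with a mean of at least 5 FPKM, the largest positive differences were found in variable genes. Mrps31 was at 0.24 with a standard error of 0.30 and Mrpl50 at 0.23 with a standard error of 0.31, and both turned below 0 without CTL replicate 1, to -0.055 and -0.014.

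In MS + Blebb. against MS, 51 of 78 members were above 0, and the median log2 fold change was 0.055, within a range from -0.30 for Mrpl47 to 0.32 for Mrps17. Over all genes tested the median was -0.0059 and 49.0% were above 0. The median was 0.033 for the large and 0.060 for the small subunit genes. No member was called (0 of 78, limma with Benjamini-Hochberg adjustment), as were 0.00% of all genes tested. At an unadjusted p under 0.05, 1 member (Mrps17) was found, which is 1.28% of the members and close to the 1.25% of all genes tested. When MS + Blebb. replicate 2, MS replicate 3 and CTL replicate 1 were left out, 29 members were above 0. The large subunit median was then -0.051 and the small subunit median -0.0044. With the trend with GC content removed, these medians were 0.068 and 0.10, and 51 members were above 0.

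Mrps17 belongs to the small subunit, and its bacterial counterpart binds rRNA early in assembly. It was at 19.0, 19.4 and 20.8 FPKM in CTL, 21.6, 17.0 and 19.3 FPKM in MS, and 23.4, 23.8 and 25.5 FPKM in MS + Blebb. All MS + Blebb. libraries lay above all others, and CTL and MS overlapped. The log2 fold change against MS was 0.32 (standard error 0.12) and had a 95% interval from 0.042 to 0.60. The unadjusted p was 0.0286 and the adjusted p was 0.897 (limma). Against CTL it was 0.29, with an interval from 0.0083 to 0.56, an unadjusted p of 0.0448 and an adjusted p of 1.00 (limma). Neither passed the adjustment over all genes. The direction held with each library left out, between 0.23 and 0.40 in the former comparison, and the value was 0.56 when the trend with GC content was removed from each library. In total, 5 members had groups that did not overlap in MS + Blebb. against MS, all of them higher with blebbistatin, compared with 3.73% of all genes in either direction and 3.05% in this direction. They were Mrps17, Mrps2, Mrps30, Mrpl44 and Mrpl57.

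Mrpl57 was at 10.7, 10.5 and 8.67 FPKM in CTL, 9.39, 8.27 and 8.96 FPKM in MS, and 10.3, 13.4 and 10.2 FPKM in MS + Blebb. The difference to MS was 0.31 (standard error 0.15, adjusted p = 0.897, limma), and it was 0.19 without MS + Blebb. replicate 2 and 0.60 with the GC trend removed. Mrpl44, whose fold resembles that of an RNase, was at 46.2, 40.0 and 38.4 FPKM in MS and at 46.6, 46.4 and 47.5 FPKM in MS + Blebb. MS replicate 1 and the blebbistatin libraries were nearly equal here, and the log2 fold change of 0.17 had a standard error of 0.11. Mrpl50 and Mrpl18 had the largest negative differences among members of at least 5 FPKM, at -0.24 with a standard error of 0.31 and at -0.23 with a standard error of 0.44. Mrpl50 turned to 0.061 with the GC trend removed, and Mrpl18 to 0.16 with MS + Blebb. replicate 2 left out.

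In MS + Blebb. against CTL, 67 of 78 members were above 0, with a median log2 fold change of 0.084 and a range from -0.070 for Mrpl19 to 0.29 for Mrps17. Over all genes tested the median was -0.013 and 46.0% were above 0, compared with 85.9% of the members. The share was 88.2% for the cytosolic ribosomal proteins and 86.1% for the nuclear-encoded respiratory chain genes tested, so it was not particular to the members. The medians were 0.081 for the large and 0.085 for the small subunit genes. Again 0 members were called (limma with Benjamini-Hochberg adjustment), as were 0.00% of all genes tested. Mrps17 was the 1 member at an unadjusted p under 0.05 (limma), compared with 0.089% of all genes. By the naming of the study these groups differed in both straining and blebbistatin, which cannot be told apart here. The groups did not overlap for 8 members, all higher in MS + Blebb., compared with 2.08% of all genes tested in either direction and 0.93% in this direction. These were Mrpl15, Mrpl22, Mrpl30, Mrpl33, Mrpl44, Mrps10, Mrps17 and Mrps23. Their levels were close even so, as Mrps23 was at 83.6, 86.2 and 82.3 FPKM in CTL and at 91.8, 95.2 and 92.6 FPKM in MS + Blebb. Without CTL replicate 1, 48 members were above 0, and the medians were 0.031 and 0.025. It was 60 members when each group lost its lowest library on the first principal component, and 71 with the GC trend removed. Members share the same libraries, so these counts are not as many independent observations.

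Among the members with the largest differences to CTL, Mrpl40 was at 27.2, 40.7 and 37.3 FPKM in CTL and at 44.4, 34.5 and 42.8 FPKM in MS + Blebb. The groups overlapped, and Mrpl40 differed by 0.22 on the log2 scale (standard error 0.20, adjusted p = 1.00, limma). Mrpl19 and Mrpl46 were lowest, at -0.070 and -0.052, with standard errors of 0.19 and 0.14. CTL had the lowest of the 3 group means in 43 members (55.1%, compared with 16.9% of all genes tested) and the highest in 2 members. Without CTL replicate 1 these counts were 24 and 21. Across the 3 groups together, 0 members were called by the moderated F test of limma with Benjamini-Hochberg adjustment, as were 0.00% of all genes. At an unadjusted p under 0.05 the F test found 0 members, compared with 0.257% of all genes, and the smallest p was 0.0545 for Mrps17 (limma).

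**Figure D5:**
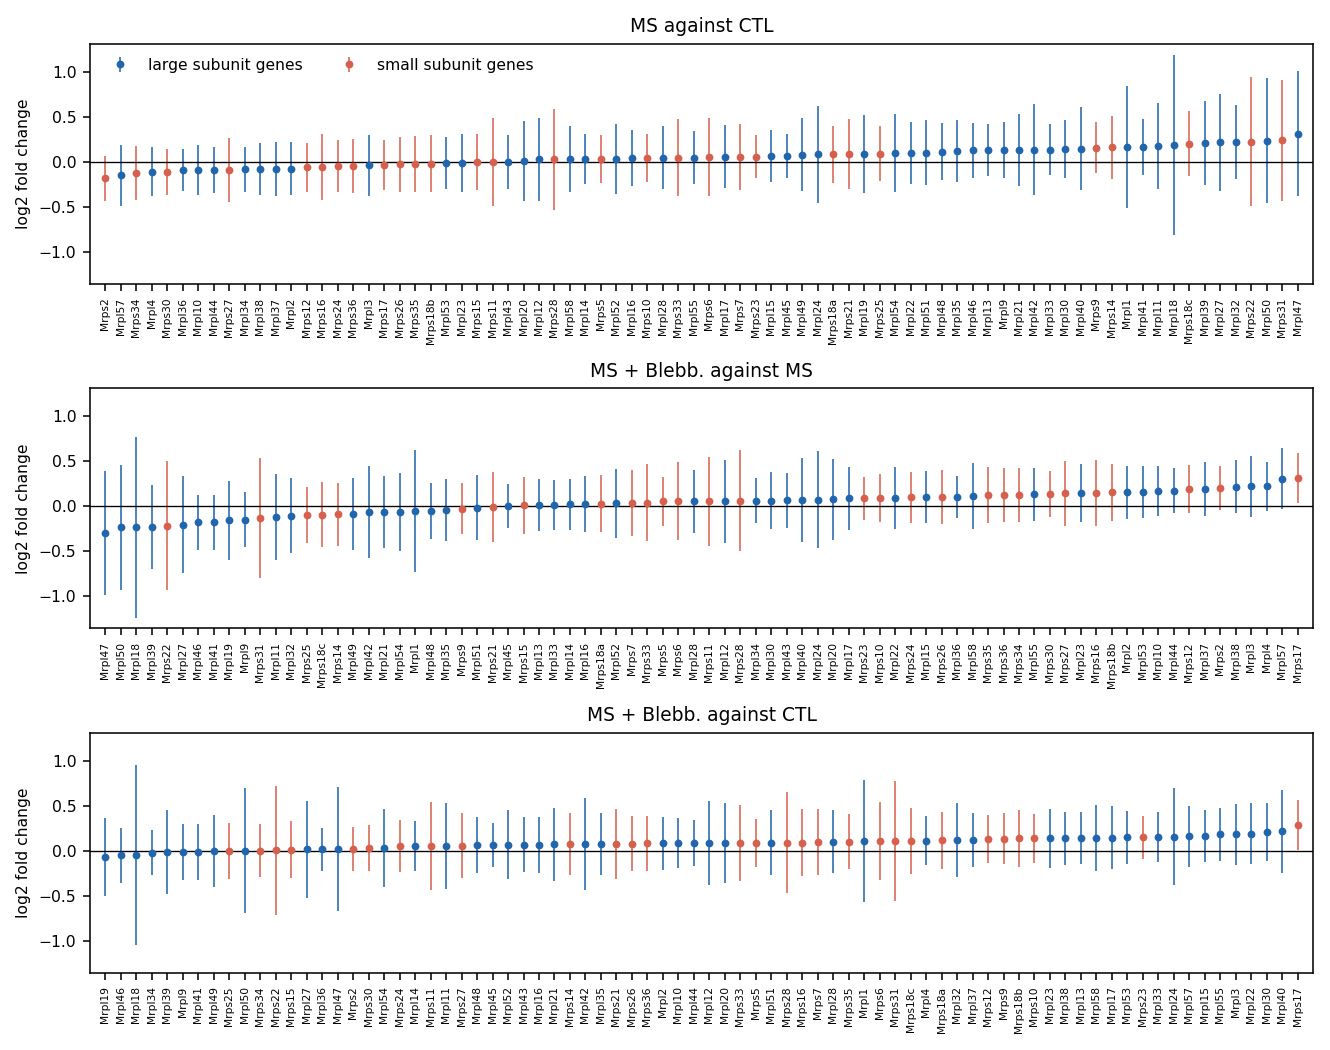
Log2 fold change of each member in the 3 comparisons (points, ordered within each panel), with the 95% interval of the limma fit (lines), for large (blue) and small (red) subunit genes. The interval of Mrps17 excludes 0 in both comparisons with blebbistatin (0.042 to 0.60 against MS, 0.0083 to 0.56 against CTL), and all other intervals include 0.

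The intervals are not adjusted for the number of genes tested, so they show the precision of single members and not what would be called. Mrps17 was not called although its interval excluded 0 in both comparisons with blebbistatin. The 95% interval around a member's log2 fold change reached between 0.24 and 1.00 to either side, and the median standard error was 0.14. A change of 2-fold (1 on the log2 scale) lay inside the interval for 2 members in MS against CTL and for 1 in each comparison with blebbistatin. Differences as small as the medians above were not detectable for single members.

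The proteins with other symbols completed the ribosome. Dap3, a GTP-binding protein of the small subunit, was at 28.7, 28.0 and 27.8 FPKM in CTL, 33.3, 31.2 and 28.5 FPKM in MS, and 34.4, 33.3 and 30.8 FPKM in MS + Blebb. Its MS + Blebb. libraries lay above those of CTL, and the unadjusted p was 0.0843 (limma). Aurkaip1 had a mean of 84.2 FPKM, Chchd1 54.1 FPKM and Gadd45gip1, a large subunit protein near the tunnel exit, 24.4 FPKM. Ptcd3, an RNA-binding repeat protein of the small subunit, was lower and more variable, at 8.23, 13.5 and 18.6 FPKM in CTL, 26.4, 13.8 and 17.8 FPKM in MS, and 9.53, 6.23 and 20.3 FPKM in MS + Blebb. The difference between MS + Blebb. and MS was -0.74 on the log2 scale, the largest among these 5 genes, but the groups overlapped. Of the 5 genes, 0 were called in any comparison (limma with Benjamini-Hochberg adjustment), and 0 had an unadjusted p under 0.05.

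Factors that build and serve the ribosome were at lower levels than its proteins. Of 27 assembly factors listed, 26 were found and tested, with a median of 8.83 FPKM, from Mettl15, an rRNA methyltransferase, at 2.74 FPKM to Mpv17l2, an inner membrane protein, at 68.6 FPKM. Gtpbp10, a GTPase of large subunit assembly, was at 3.27 FPKM, and the RNA helicase Dhx30 was at 38.8 FPKM. Of 16 translation factors, 15 were tested, with a median of 9.31 FPKM. Tufm, the elongation factor that brings tRNA to the ribosome, stood far above the others at 97.3 FPKM, followed by its exchange factor Tsfm at 31.3 FPKM. The initiation factor Mtif2 and the release factor Mtrf1l were lowest, at 1.48 and 1.06 FPKM. The median log2 fold change of the assembly factors was -0.061 with straining, 0.090 with blebbistatin against straining and 0.055 with blebbistatin against the control. For the translation factors the medians were 0.11, -0.027 and 0.021. In both lists 0 genes were called (limma with Benjamini-Hochberg adjustment), and 0 had an unadjusted p under 0.05 in any comparison.

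The cytosolic ribosomal proteins had medians of 0.072, 0.011 and 0.066 in the same comparisons, and the nuclear-encoded respiratory chain genes had 0.042, 0.026 and 0.063. The members, at 0.050, 0.055 and 0.084, were thus close to both groups. The mRNAs of the mitochondrial genome had medians of 0.32, -0.30 and 0.028. Of these 13 mRNAs, 0 were called, and 3 had an unadjusted p under 0.05 (limma) with straining and again with blebbistatin against straining, compared with 0.158% and 1.25% of all genes tested. Of the members, 33 share exon positions with another annotated gene, and their FPKM may hold fragments of that gene. Pairs with other mitochondrial genes were found among them, such as Mrpl36 with Ndufs6 and Mrpl47 with Ndufb5, both subunits of complex I.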

How the data were processed

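RNA was extracted with TRIzol and sequenced on an Illumina platform in 9 libraries. The authors deposited 1 FPKM value per gene and library, and the column of CTL replicate 1, headed by the name of the sample, was read as FPKM as well. The labels name GRCm38 (mm10), and the aligner, counting program and annotation are not given in the sources used here. FPKM was scaled by length and library before deposit, so depth is unknown and precision rests on 3 libraries a group.

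Values were used as log2(FPKM + 1), which understates changes of low genes. All 10109 genes whose mean reached 1 FPKM were tested in limma 3.58.1 (R 4.3.3) on the 3 groups with a mean-variance trend, two-sided, Benjamini-Hochberg adjusted over those genes, and a threshold of 0.05. The fit was also run on simulated data in which each gene varied independently. Genes vary together in these libraries, so that run does not show how the fit behaves on them. Exon overlaps and GC content were taken from GENCODE M21 and promoters from RefSeq, both on GRCm38.

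The members and gene lists were chosen with earlier results of these data known. Genes were named by rule: the highest and lowest 3 of each prefix, the S18 paralogs, the 2 largest differences each way per comparison and the 3 largest and smallest SDs (all at 5 FPKM or more), the proteins with other symbols, and the 2 highest and lowest assembly and translation factors. Alternatives were a pseudocount of 0.1, other minimums, median-of-ratios factors, quantile normalization, TPM, no trend, only the groups compared, a replicate block, removal of the GC trend, libraries left out, and subunits by structure.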

Additional observations from a re-analysis of the deposited data

How the results depend on the processing

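In all alternatives, 0 members were called in any comparison. Over all genes tested, leaving out 1 library gave between 0 and 1 genes called with straining (MS against CTL), with blebbistatin (MS + Blebb. against MS) and in the test across the 3 groups, with the 1 gene found without MS replicate 2. The summed FPKM changed in scale when each library was rescaled to TPM, to 5115, 5218 and 5374 for the large and 2426, 2436 and 2537 for the small subunit genes in CTL, MS and MS + Blebb. With subunits assigned by structure, the small subunit sums were 958, 978 and 1018 FPKM, since Mrps18a, Mrps30 and Mrps36 are then left out. Of 12 differences of named members, 242 values under the alternatives kept their direction and 10 reversed, and the smallest adjusted p was 0.450 (limma). With each library left out, Mrps31 lay between -0.055 and 0.46 and Mrpl50 between -0.014 and 0.40 with straining. Mrpl18 lay between -0.49 and 0.16 in MS + Blebb. against MS, and Mrpl19 between -0.21 and 0.10 in MS + Blebb. against CTL. Without CTL replicate 3, Mrpl19 was at 0.020. With the GC trend removed, Mrpl50 was at 0.061 in MS + Blebb. against MS and Mrpl19 at 0.010 against CTL, both with and without the replicate block. When MS + Blebb. replicate 2, MS replicate 3 and CTL replicate 1 were left out, Mrpl46 was at 0.036 in MS + Blebb. against CTL. The causes of these changes were not tested.

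Same-numbered libraries had correlations of their deviations from -0.78 to 0.84 (median -0.23), and others from -0.88 to 0.92 (median 0.20). Both kinds of pairs varied this widely, so whether the replicate numbers pair the libraries could not be decided. With the replicate block, 0 members were called, and 1 had an unadjusted p under 0.05 in MS + Blebb. against MS and 0 against CTL (limma). The shares of all genes tested under this block are not given here, so these counts show nothing particular to the members. Unknown depth and 3 libraries a group limit what could be detected.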
